A study of Mus musculus with 3 samples.

Results

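The genes described here are 48 members of the PI3K, AKT, mTOR and AMPK signalling network, listed by name and found by matching gene identifiers to GENCODE M21 symbols. All 48 were matched, among 55536 annotated genes and 22028 protein-coding genes. The material was activated regulatory T cells (Treg cells, a CD4 lineage that depends on Foxp3 and holds immune responses in check), taken as primary cells from a male mouse of 9 weeks. Polyadenylated RNA of 1 biosample from 1 donor was sequenced as 3 technical libraries, and the labels name no genotype, strain or activating agent and give the organ of origin no closer than the whole animal. There was 1 group, so no condition was compared with another, and each SD below (n = 3 libraries) is technical. TPM is a transcript level scaled for length and for library size, and a gene was called detected with at least 1 TPM in all 3 libraries.

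Class I PI3Ks phosphorylate a membrane lipid after antigen receptor, costimulatory and cytokine signals, and the product recruits the kinases PDK1 and AKT. AKT relieves the TSC complex's brake on Rheb, which activates the growth kinase complex mTORC1, while amino acids reach mTORC1 through the Rag GTPases at the lysosome. AMPK, switched on by LKB1 when energy is scarce, restrains mTORC1. In Treg cells, strong PI3K and AKT signalling is known to weaken Foxo-dependent Foxp3 expression, whereas mTORC1 is known to be needed for suppressive function in mice.

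The libraries held 31445344, 32612609 and 37259281 expected counts. The 4 T cell markers summed to 3998 to 4090 TPM and the 4 Treg markers, Foxp3, Il2ra, Ctla4 and Ikzf2, to 1209 to 1267 TPM, so the label and its defining markers matched. Markers of other cells were low but mostly present: B cell genes summed to 9.73 to 17.0 TPM with 3 of 4 detected and Pax5 at 0.09 TPM, myeloid genes to 39.7 to 45.1 TPM with 3 of 4 detected, CD8 and NK genes to 5.22 to 5.74 TPM with 3 of 4 detected. The haemoglobin genes Hba-a1 and Hbb-bt summed to 185 to 260 TPM. What part such cells had in the levels below was not tested, and in bulk RNA fewer cells of a type and less RNA per cell cannot be told apart.

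Nearly all listed members were detected. Of the 48 members, 46 were detected (95.8%), against 47.3% of all protein-coding genes, and 42 of 50 further genes of the same pathways. Members and lists were chosen with earlier results of these data known. The contrast in shares therefore describes the lists and is not a test of the network. The median member stood at 35.0 TPM, or 35.9 TPM among those detected, against 29.2 TPM for the 10429 detected protein-coding genes. Those genes had quartiles of 10.7 and 71.4 TPM, and 12 members lay above the upper and 2 below the lower. In all, 9 members reached 100 TPM or more, 8 lay between 50 and 100 TPM, 16 between 20 and 50 TPM, 11 between 10 and 20 TPM, 2 between 1 and 10 TPM, and 2 under 1 TPM. The 9 members at 100 TPM or more were, from the highest, Inpp4b, Pik3cd, Inpp5d, Akt1, Lamtor2, Rheb, Sesn1, Lamtor1 and Prkag1. They span lipid phosphatases, a PI3K catalytic subunit, AKT, the activator of mTORC1 and parts of the lysosomal and energy-sensing arms.

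**Figure D1:**
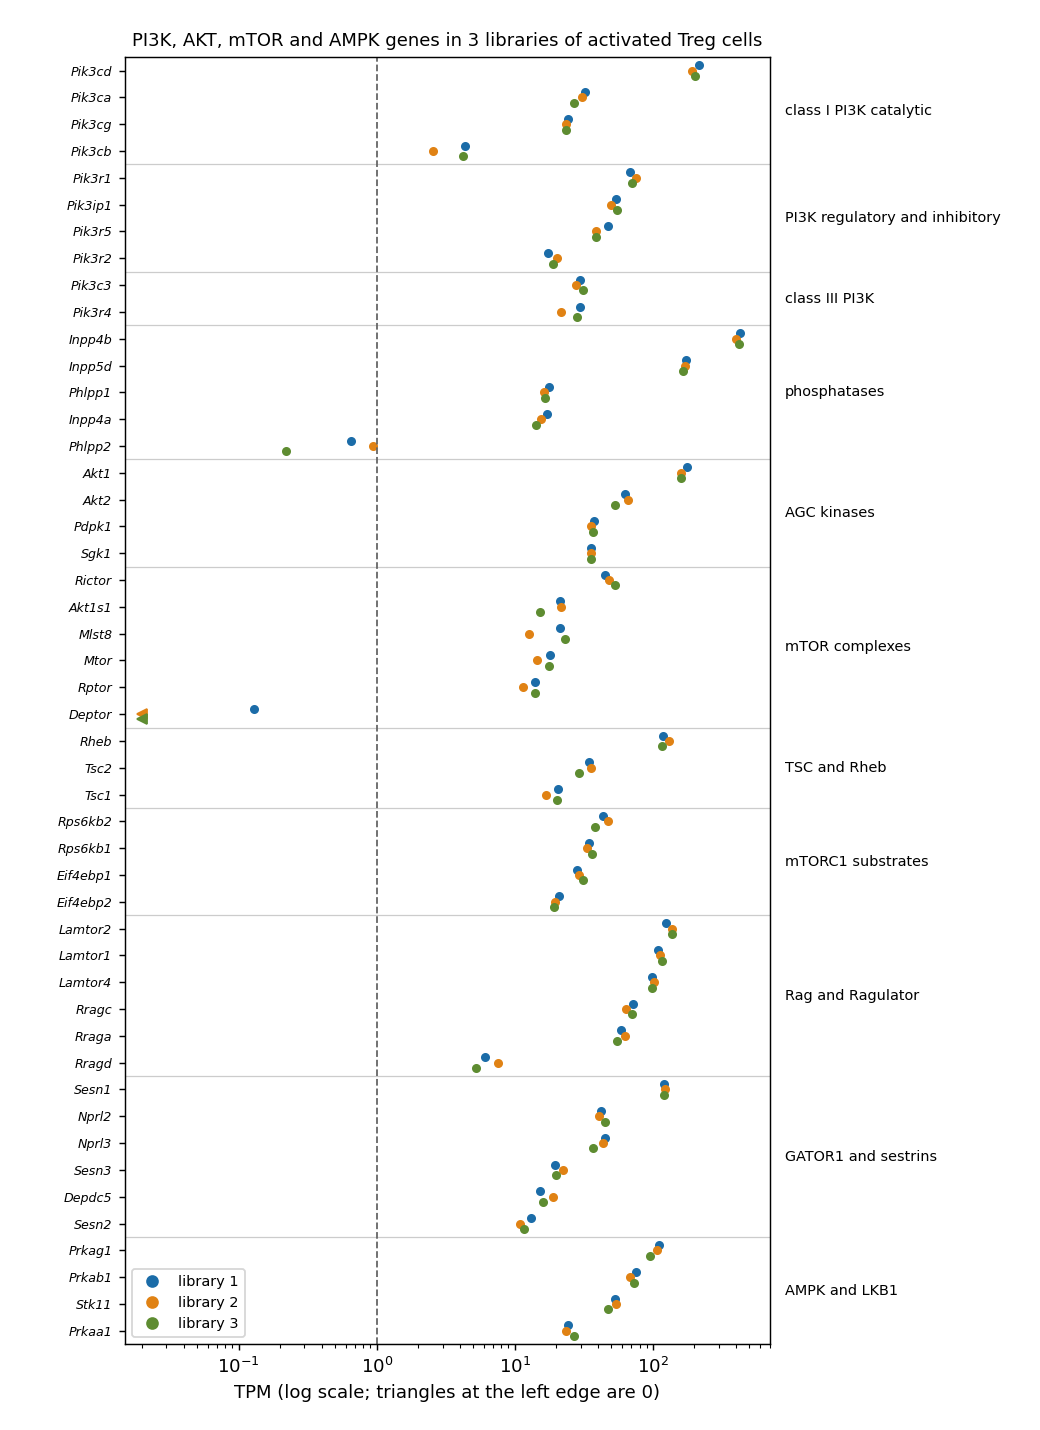
TPM of each of the 48 members in the 3 libraries, on a log scale and grouped by role, with the detection level of 1 TPM dashed. Inpp4b (416 TPM on average) and Pik3cd (203 TPM) stand at the right, and Phlpp2 and Deptor lie left of the dashed line.

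**Figure D2:**
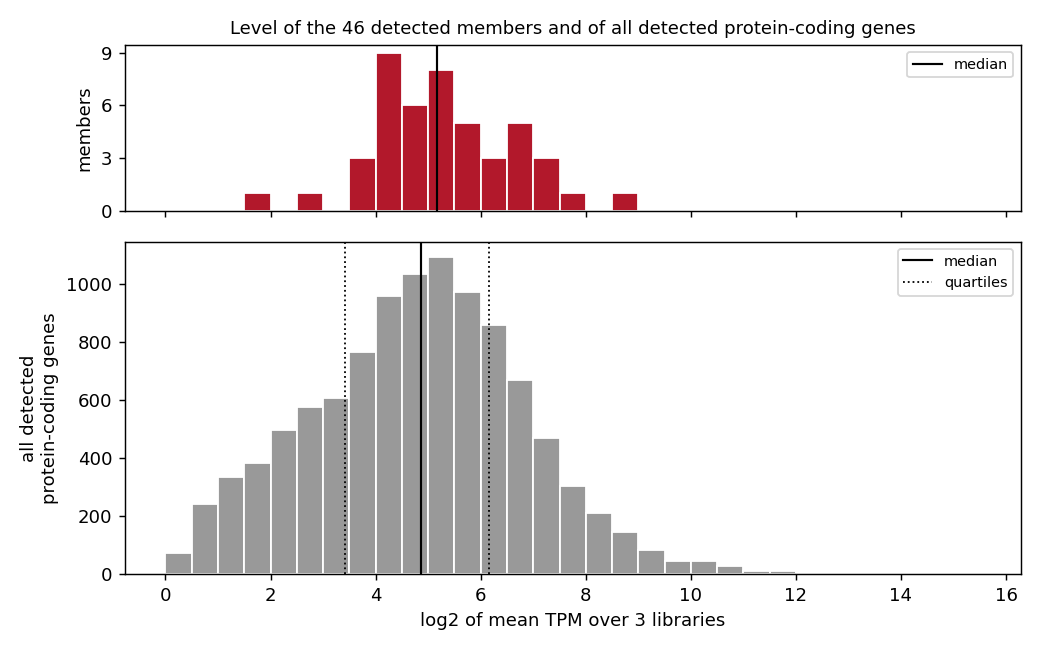
Number of detected members (upper panel) and of all 10429 detected protein-coding genes (lower panel) by log2 of mean TPM. The medians of 35.9 TPM for members and 29.2 TPM for all genes fall close together, and few members lie in the lower tail.

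Among the class I catalytic subunits the delta isoform led. Pik3cd (chromosome 4, 149649168 to 149702571, minus strand, mm10), the leukocyte isoform used by antigen and costimulatory receptors, had 217, 191 and 202 TPM in libraries 1, 2 and 3. Pik3ca, the broadly expressed alpha isoform, had 32.2, 30.9 and 26.8 TPM. Pik3cg, the gamma isoform activated by G protein-coupled receptors, had 24.2, 23.5 and 23.5 TPM. No library brought any of them near Pik3cd, which exceeded Pik3ca by 6.80-fold (log2 ratio 2.77 ± 0.14) and Pik3cg by 8.55-fold (3.10 ± 0.07). In a smaller gene table, whose whole-number counts come from an older annotation and are not corrected for length, these ratios were 2.72-fold and 3.53-fold. Pik3cb, the beta isoform, was near the bottom of the network with 4.34, 2.56 and 4.21 TPM, 56.3-fold below Pik3cd (log2 ratio 5.82 ± 0.35). That fold depended on what was counted, at 265-fold over protein-coding transcripts and 20.1-fold in the smaller table. Pik3cd made up 78.0% ± 0.862 of the summed TPM of the 4 genes and Pik3cb 1.41% ± 0.333.

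The Pik3cd transcripts differed at 3 exon boundaries inside the coding sequence. At these places 2 sets of annotated coding transcripts shared the 3′ end of an exon while its 5′ end differed by 12, 9 or 3 bases, that is 4, 3 or 1 whole codons, each form holding at least 10% of the gene's TPM. The sequences are shown because they are all that separates the forms at each place, with 21 bases of transcript on either side and the extra bases in capitals.
Pik3cd A longer: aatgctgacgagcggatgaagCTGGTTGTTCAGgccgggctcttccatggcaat
Pik3cd A shorter: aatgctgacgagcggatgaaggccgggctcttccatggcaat
Pik3cd B longer: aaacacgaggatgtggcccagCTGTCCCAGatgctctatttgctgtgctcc
Pik3cd B shorter: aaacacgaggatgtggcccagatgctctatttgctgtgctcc
Pik3cd C longer: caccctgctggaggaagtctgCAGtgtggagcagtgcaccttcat
Pik3cd C shorter: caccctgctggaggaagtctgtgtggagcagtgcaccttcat
The longer form of boundary A, an exon at chr4:149657246-149657467 (minus strand), held 70.4% ± 2.97 of the TPM of the transcripts that use either form. The shares at boundary B, chr4:149655127-149655257 (minus strand), were close to even, with 47.7% ± 1.88 in the longer form. At boundary C, chr4:149654023-149654138 (minus strand), the longer form was the minor one with 22.6% ± 1.12. The 3 transcripts above 12% of the gene's TPM carried different combinations: Pik3cd-214 (1047 codons) held 34.8% ± 1.68, Pik3cd-206 (1040 codons) 24.8% ± 3.10 and Pik3cd-201 (1045 codons) 18.9% ± 0.524. All 3 libraries placed Pik3cd-214 first.

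Regulatory subunits showed an equally clear order. Pik3r1, which stabilises the class IA catalytic subunits and docks them to phosphotyrosine, had 68.5, 75.8 and 70.8 TPM. Pik3r2, its paralog, had 17.3, 20.3 and 19.0 TPM, and the ratio of the genes was 3.80-fold (log2 1.93 ± 0.05), or 2.36-fold in the smaller table. The third class IA regulatory gene, Pik3r3, averaged 2.05 ± 0.407 TPM. Pik3r5, the partner of the gamma isoform, had 47.7, 38.5 and 38.4 TPM, and stood above Pik3cg, with a log2 ratio of Pik3cg to Pik3r5 of -0.80 ± 0.15 that became -0.20 ± 0.13 and was no longer called in the smaller table. The alternative gamma partner Pik3r6 was at 0.227 ± 0.205 TPM, under the detection level. Pik3ip1, a transmembrane inhibitor of PI3K, had 53.9, 49.5 and 55.1 TPM, within the range of the regulatory subunits.

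Pik3r1 also carried its transcripts from separate start sites. Of its TPM, 52.8% ± 1.58 came from transcripts that began within 50 bases of the upstream RefSeq start. They included Pik3r1-202, which encodes the long subunit of 724 codons and by itself held 35.9% of the gene's TPM. The start inside the gene, used by the shorter Pik3r1-201 with 454 codons, had 13.3% ± 2.87. The rest of the TPM was in transcripts that began within 50 bases of neither of these starts. The windows below (RefSeq, GRCm38.p6) run from 250 bases before each start to 30 bases after it, and are shown because the starts differ so much in use and in base composition. Over the full window of 300 bases, the upstream start had 75.7% GC and 34 CpG, and the internal start 43.7% GC and 6 CpG, against medians of 52.7% and 7 over 32851 windows.
Pik3r1 upstream start, chr13:101768188-101768467, minus strand: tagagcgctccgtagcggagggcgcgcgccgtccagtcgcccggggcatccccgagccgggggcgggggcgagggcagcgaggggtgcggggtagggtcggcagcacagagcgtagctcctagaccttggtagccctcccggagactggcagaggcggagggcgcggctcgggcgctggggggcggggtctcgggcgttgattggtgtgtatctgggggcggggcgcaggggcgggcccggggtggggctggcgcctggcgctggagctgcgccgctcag
Pik3r1 internal start, chr13:101692601-101692880, minus strand: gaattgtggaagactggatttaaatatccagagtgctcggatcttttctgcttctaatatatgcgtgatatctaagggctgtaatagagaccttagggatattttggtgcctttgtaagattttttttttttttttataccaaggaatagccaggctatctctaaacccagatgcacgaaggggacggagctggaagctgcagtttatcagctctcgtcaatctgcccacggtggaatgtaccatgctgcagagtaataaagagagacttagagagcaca
Neither window held the motifs searched below, so no letters are in capitals.

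The class III lipid kinase gene Pik3c3, whose product acts in autophagy and endosomal sorting, had 29.5, 27.7 and 31.1 TPM. Pik3r4, its obligate regulatory partner, had 29.8, 21.5 and 28.0 TPM. The pair did not differ beyond the spread over all transcripts (log2 ratio 0.17 ± 0.19), but did over coding transcripts, where Pik3c3 was higher in each library (0.45 ± 0.16).

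The phosphatases that consume PI3K products included the most abundant member. Inpp4b (chromosome 8, 81342556 to 82127914, plus strand), which removes a phosphate from the bisphosphate lipid that helps recruit AKT, had 427, 399 and 423 TPM and stood above 97.1% of detected protein-coding genes. Its paralog Inpp4a had 17.1, 15.6 and 14.2 TPM, 26.7-fold lower (log2 ratio of Inpp4b to Inpp4a 4.74 ± 0.13). The ratio was 14.8-fold without length correction and 10.01-fold in the smaller table. Inpp5d (chromosome 1, 87620312 to 87720507, plus strand), which encodes the haematopoietic phosphatase SHIP1 acting directly on the class I product, had 173, 170 and 164 TPM. All 3 libraries put Inpp4b first, and Inpp5d ranged from 164 to 173 TPM against 15.6 ± 1.41 TPM for Inpp4a.

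Much of the Inpp4b level lay outside the full-length form. The largest share of TPM, 35.5% ± 2.77, was in Inpp4b-208 with 633 codons, and a further 26.3% ± 1.32 was in Inpp4b-213, a noncoding transcript of 412 bases. Inpp4b-209, with 927 codons and 8067 bases, held 14.3% ± 1.10 of TPM but 48.2% of expected counts, since TPM gives short transcripts more weight per read. Protein-coding transcripts as a whole made up 55.7% ± 1.47 of TPM, or 232 ± 14.2 TPM, but 90.3% of expected counts. Inpp5d had 1 boundary of the kind described for Pik3cd, a difference of 3 bases or 1 codon in an exon at chr1:87667889-87668063 (plus strand) of Inpp5d-210, whose extra bases are in capitals.
Inpp5d D longer: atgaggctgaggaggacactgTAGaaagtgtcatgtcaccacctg
Inpp5d D shorter: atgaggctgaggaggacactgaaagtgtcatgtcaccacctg
The longer form took 82.0%, 77.8% and 73.2% of the TPM in libraries 1, 2 and 3 (77.7% ± 4.41).

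The PHLPP phosphatases, which dephosphorylate AKT itself, were split. Phlpp1 had 17.6, 16.4 and 16.5 TPM. Phlpp2 had 0.65, 0.94 and 0.22 TPM and was not detected. Phlpp1 was higher in each library (log2 ratio 5.03 ± 1.08), but the size of the ratio was poorly fixed: it was 32.8-fold over 3 libraries, 21.7-fold without library 3, 11.3-fold with 1 TPM added to each value, 68.5-fold over coding transcripts and 64.1-fold in the smaller table.

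Of the kinases downstream of the lipid signal, Akt1 was highest. Akt1 (chromosome 12, 112653821 to 112674884, minus strand), the main AKT isoform of most tissues, had 176, 160 and 158 TPM. Akt2, best known for insulin signalling, had 62.9, 65.9 and 53.1 TPM. The 2.73-fold difference (log2 1.45 ± 0.15) exceeded the spread, and Akt1 was above Akt2 in each library. Pdpk1, which encodes the activating kinase PDK1, had 37.3, 35.4 and 36.5 TPM. Sgk1, a relative of AKT activated through mTORC2, had 35.4, 35.7 and 35.4 TPM, the smallest relative spread in TPM of the 46 detected members (0.513%). Its counts varied by 1.10% beyond sampling noise and those of Pik3ip1 and Rps6kb1 by 0%, so that place holds for TPM only. Sgk3 was lower at 10.8 ± 0.154 TPM and Sgk2 averaged 0.053 TPM. Akt1 and Sgk1 were each dominated by 1 coding transcript, Akt1-201 with 93.3% ± 1.12 and Sgk1-201 with 78.5% ± 5.77 of TPM.

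Mtor, Rptor, Mlst8 and Akt1s1 lay below the median of detected protein-coding genes, and Rictor above it. Mtor, the shared catalytic subunit, had 17.9, 14.5 and 17.6 TPM, above 34.4% of detected protein-coding genes. Rptor, the scaffold that defines mTORC1, had 13.9, 11.6 and 13.9 TPM. Rictor, the scaffold that defines mTORC2, had 44.8, 48.1 and 53.1 TPM, above 65.0% of detected protein-coding genes. By gene TPM, Rictor exceeded Rptor in every library (log2 ratio of Rptor to Rictor -1.89 ± 0.19). That order rested on transcripts not annotated as protein coding: only 8.76% ± 0.963 of Rictor TPM was in protein-coding transcripts, against 35.1% ± 7.81 for Rptor. Counted over coding transcripts alone, Rptor averaged 4.65 ± 1.37 TPM and Rictor 4.25 ± 0.399 TPM, a log2 ratio of 0.09 ± 0.30 that did not exceed the spread. The retained-intron transcripts Rictor-204 and Rictor-205 held 51.1% ± 0.375 and 25.9% ± 0.995 of Rictor TPM.

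Mlst8, a subunit of both complexes, had 21.2, 12.7 and 23.1 TPM and the largest relative spread in TPM of the detected members (29.3%). Its leading transcript changed with the library, being Mlst8-207 in libraries 1 and 3 and Mlst8-202 in library 2, where Mlst8-207 was listed at 0. Akt1s1, the mTORC1 inhibitor PRAS40, had 21.4, 21.6 and 15.1 TPM. Deptor, an inhibitor that binds mTOR in both complexes, had 5 expected counts in library 1 and 0 in libraries 2 and 3. Against the level that 3 counts would give in a library, Akt1s1 was at least 510-fold and 404-fold higher in libraries 2 and 3. In library 1 the measured ratio was 165-fold. That level was 0.0422 and 0.0375 TPM in libraries 2 and 3 but 0.0755 TPM in library 1, so the bounds vary with the Deptor length taken for each library. The smaller table held 2 Deptor counts in library 2. For Mtor, the full-length Mtor-202 with 2549 codons held 86.9% of expected counts but 43.0% ± 4.17 of TPM, and the short Mtor-201 with 256 codons 55.6% ± 3.15 of TPM.

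Further mTORC2 subunits also differed in level. Mapkap1, which encodes the mTORC2 subunit SIN1, reached 75.9 ± 6.35 TPM, while Prr5 was under the detection level at 0.613 ± 0.172 TPM. Its paralog Prr5l lay at or just above that level, with 1.23, 1.07 and 1.0 TPM in libraries 1, 2 and 3.

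The TSC complex, which switches Rheb off, was lower than its target. Tsc1 had 20.5, 17.0 and 20.2 TPM. Tsc2, which carries the GTPase-activating domain, had 34.2, 35.8 and 29.2 TPM. The log2 ratio of Tsc1 to Tsc2 was -0.78 ± 0.27 over all transcripts and -2.88 ± 0.18 over coding transcripts, since 15.4% ± 2.19 of Tsc1 TPM and 65.6% ± 6.18 of Tsc2 TPM were coding. Rheb (chromosome 5, 24802823 to 24842624, minus strand), the GTPase that activates mTORC1, had 119, 130 and 116 TPM, with 49.6% ± 0.637 in the coding transcript Rheb-201 and 41.5% ± 2.12 in the retained-intron transcript Rheb-202. The exons of Tsc2 overlapped those of Pkd1, a gene on the opposite strand at 33.2 ± 0.567 TPM, over 7.20% of their bases, and whether reads of Pkd1 entered the Tsc2 value was not tested.

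Tsc2 also had a codon-sized boundary, in an exon at chr17:24604828-24604992 (minus strand) of Tsc2-201, where 3 bases are present or absent.
Tsc2 E longer: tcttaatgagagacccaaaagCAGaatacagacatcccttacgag
Tsc2 E shorter: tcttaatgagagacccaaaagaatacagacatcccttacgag
The longer form held 67.7%, 59.1% and 69.3% of the TPM, a majority in each library. These 5 boundaries in Pik3cd, Inpp5d and Tsc2 were the ones found by the rule of at most 15 bases and at least 10% of TPM in each form, with Pik3c3 not searched.

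The substrates of mTORC1 averaged between 19.9 and 42.7 TPM, and the order of the 4E-BP genes depended on the transcripts counted. Rps6kb1, which encodes the S6 kinase, had 34.3, 33.3 and 36.1 TPM. Rps6kb2, its paralog, had 43.2, 47.1 and 37.9 TPM. The genes did not differ beyond the spread (log2 ratio -0.30 ± 0.22), though Rps6kb2 was called higher without library 3 (-0.42 ± 0.12) and without length correction (-0.17 ± 0.07), and 28.8% ± 2.36 and 22.02% ± 3.50 of their TPM were coding. The exons of Rps6kb2 overlapped those of Ptprcap, a CD45-associated gene on the opposite strand at 1554 ± 23.4 TPM, over 23.7% of their bases. The strand setting of the counting is not known, and whether Ptprcap reads entered the Rps6kb2 value was not tested.

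Eif4ebp1, whose product blocks cap-dependent translation until mTORC1 phosphorylates it, had 28.4, 29.2 and 31.01 TPM. Eif4ebp2, its paralog, had 20.9, 19.6 and 19.3 TPM. Over all transcripts Eif4ebp1 was 1.48-fold higher (log2 0.57 ± 0.12). The sign turned without length correction (log2 -1.27 ± 0.14) and in the smaller table, where the pair was not called (-0.22 ± 0.16). Of that level, 89.4% ± 0.101 was in Eif4ebp1-202, a processed transcript of 798 bases with no annotated coding sequence. Over coding transcripts the order turned round, with 3.12 ± 0.112 TPM for Eif4ebp1 and 19.9 ± 0.892 TPM for Eif4ebp2 (log2 -2.68 ± 0.11). The third family member, Eif4ebp3, stood at 7.89 ± 1.52 TPM. Downstream, Eif4e, the cap-binding protein that the 4E-BPs hold, reached 164 ± 4.48 TPM, and Rps6, the ribosomal substrate of the S6 kinases, 378 ± 52.3 TPM with reads shared among similar genes.

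In the amino acid arm at the lysosome, Lamtor2, Lamtor1 and Lamtor4 were among the 10 most abundant members, while Rragd was among the lowest. Lamtor2 had 124, 138 and 139 TPM, Lamtor1 108, 112 and 117 TPM, and Lamtor4 98.8, 102 and 98.1 TPM. These are subunits of Ragulator, the scaffold that anchors the Rag GTPases to the lysosome, and the other 2 subunits, Lamtor5 and Lamtor3, averaged 237 ± 14.0 and 60.4 ± 0.921 TPM. Lamtor1 was 98.2% coding, whereas 56.1% ± 4.62 of Lamtor4 TPM was in the processed transcript Lamtor4-202. In Lamtor2, 57.8% ± 3.01 of TPM was in Lamtor2-202, with 52 codons, and 38.5% ± 3.25 in Lamtor2-201, with 125 codons.

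The Rag GTPases act as a dimer of A or B with C or D. Rraga had 58.5, 62.9 and 55.2 TPM, and Rragb averaged 6.69 ± 0.483 TPM. Rragc had 71.9, 64.4 and 70.3 TPM, and Rragd 6.05, 7.53 and 5.24 TPM. Thus Rraga held 89.8% ± 0.606 of its pair and Rragc 91.6% ± 1.85 of its pair, with Rragc 11.1-fold above Rragd (log2 3.47 ± 0.34). The fold was 19.0 over coding transcripts and 6.65 in the smaller table.

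GATOR1 turns Rag A and B off when amino acids are scarce, with a catalytic residue in its Nprl2 subunit. The subunits Nprl2 and Nprl3 had nearly equal gene TPM, with 42.1, 40.6 and 45.2 TPM for Nprl2 and 45.2, 43.5 and 37.1 TPM for Nprl3, and a log2 ratio of Nprl3 to Nprl2 of -0.03 ± 0.22 that did not exceed the spread. Over coding transcripts Nprl3 was lower in each library, with 18.5 ± 3.03 TPM against 30.5 ± 2.11 TPM for Nprl2 (log2 -0.74 ± 0.30). Depdc5, the remaining subunit, was lower with 15.3, 18.9 and 16.1 TPM, and Nprl3 exceeded it by 2.50-fold (log2 1.32 ± 0.21). That call was lost without length correction (log2 0.31 ± 0.27) and in the smaller table (-0.04 ± 0.27), and the ratio over coding transcripts was 1.65-fold. Nprl3 shared exon bases with Mpg on the opposite strand (24.4 ± 2.72 TPM, 17.7% of Nprl3 exon bases), and 44.0% ± 4.99 of its TPM was coding. Sec13, a subunit of the opposing GATOR2 complex that also serves the secretory pathway and nuclear pore, reached 154 ± 8.02 TPM. Other GATOR2 genes were lower, with Seh1l at 39.2, Wdr24 at 27.0, Mios at 18.1 and Wdr59 at 6.30 TPM on average.

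Sestrins, which restrain mTORC1 by binding GATOR2, were led by Sesn1. Sesn1 (chromosome 10, 41809935 to 41908424, plus strand), a stress-induced gene, had 119, 123 and 120 TPM. Sesn3, a known Foxo target, had 19.7, 22.5 and 20.04 TPM, and Sesn2, a leucine sensor, 13.1, 10.98 and 11.7 TPM. Sesn1 exceeded Sesn2 by 10.1-fold (log2 3.34 ± 0.15; 5.70-fold in the smaller table) and Sesn3 by 5.83-fold (2.54 ± 0.09), and made up 78.7% ± 0.380 of the family.

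Only 1 of the 2 RefSeq starts of Sesn1 had an annotated transcript within 50 bases. Transcript Sesn1-201, which begins at the downstream start, held 92.3% ± 0.510 of TPM. No annotated transcript began within 50 bases of the upstream start, so its use could not be measured. The rest of the TPM was in transcripts that began near neither start. Both windows are shown because most of the TPM was assigned to a transcript at 1 of them. Capitals mark the forkhead motif TGTTTAC.
Sesn1 upstream start, chr10:41810324-41810603, plus strand: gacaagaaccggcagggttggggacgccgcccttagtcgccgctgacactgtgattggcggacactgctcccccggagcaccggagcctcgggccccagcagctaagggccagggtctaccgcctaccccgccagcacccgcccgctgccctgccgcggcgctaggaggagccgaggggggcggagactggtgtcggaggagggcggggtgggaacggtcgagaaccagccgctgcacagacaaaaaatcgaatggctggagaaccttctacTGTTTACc
Sesn1 downstream start, chr10:41887189-41887468, plus strand: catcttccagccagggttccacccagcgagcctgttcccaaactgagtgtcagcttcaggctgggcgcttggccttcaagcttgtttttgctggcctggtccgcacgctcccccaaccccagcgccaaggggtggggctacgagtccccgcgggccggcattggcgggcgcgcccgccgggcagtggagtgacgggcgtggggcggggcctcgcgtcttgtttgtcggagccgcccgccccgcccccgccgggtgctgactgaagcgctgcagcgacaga
The motif lay in the window of the upstream start and not in that of the downstream start. On either strand, TGTTTAC was found in 4 of the 61 windows of the 44 members with a RefSeq window (6.56%, in Akt1, Pik3cg, Sesn1 and Stk11), against 3.65% of all 32851 windows. The E-box CACGTG, searched in the same way, was in 5 of 61 windows (8.20%, in Lamtor1, Lamtor4, Rheb, Rragc and Sgk1), against 7.15% of all windows. Both shares describe letters in these windows only.

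At each AMPK position 1 gene held most of the TPM, wholly so for alpha and least so for gamma. Prkaa1, the catalytic alpha subunit, had 24.3, 23.4 and 26.6 TPM, while Prkaa2 had 0 expected counts in each library, which allows up to 0.0195, 0.0183 and 0.0162 TPM by 3 counts. Prkab1, the scaffolding beta subunit, had 75.9, 67.8 and 72.7 TPM, and held 97.9% ± 0.436 of its pair, with Prkab2 at 1.53 ± 0.378 TPM. Prkag1, the nucleotide-binding gamma subunit, had 111, 107 and 94.8 TPM and 77.6% ± 1.10 of its family. Exons of an antisense gene, B130046B21Rik at 2.19 ± 0.0964 TPM, covered 43.7% of Prkag1 exon bases. Prkag2 followed with 30.1 ± 2.55 TPM or 22.4% of the family, and Prkag3 had 0 counts. Stk11, which encodes the upstream kinase LKB1, had 53.3, 54.1 and 47.3 TPM. Its partner Cab39 (MO25 alpha) reached 220 ± 6.498 TPM, above Stk11 in each library.

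**Figure D3:**
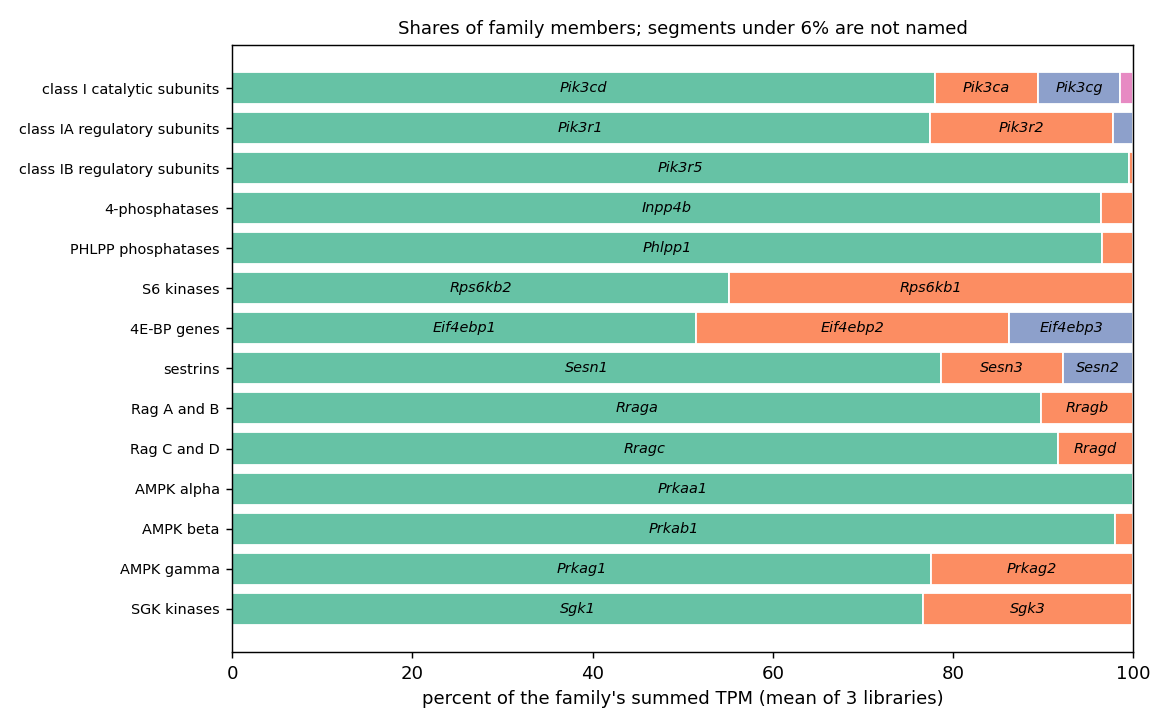
Percent of each family's summed TPM held by its genes, as the mean of 3 libraries. A single gene fills over 70% of each bar other than those of the S6 kinases and the 4E-BP genes.

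Part of these levels lay in transcripts not annotated as protein coding, among them nonsense-mediated decay transcripts, which have an annotated reading frame. Such transcripts held 76.4% of Pik3cb, 58.5% of Tsc1 and 42.4% of Rps6kb2 TPM. In the 46 detected members the median share of TPM in transcripts annotated as protein coding was 78.5%, against 88.1% over all detected protein-coding genes, and 10 members were under 50% (21.7%), against 14.3% of all. The 10 were Rictor, Eif4ebp1, Tsc1, Rps6kb2, Pik3cb, Rps6kb1, Rptor, Lamtor4, Nprl3 and Rheb. Pik3cb, at 23.6% ± 18.7 coding, varied widely between libraries, and its leading transcript Pik3cb-203 is annotated for nonsense-mediated decay. By expected counts, which give long transcripts their full weight, the median coding share was 94.1% and 8 members were under 50%. These shares by counts were not computed over all detected genes, so they describe the members only and set them apart from nothing. In 38 of the 46 the leading transcript by TPM was protein coding, and the share among all detected genes was not computed. Coding forms could also share a product. Eif4ebp2-202 and Eif4ebp2-201 encode 120 codons each, with 59.7% ± 0.809 and 40.3% ± 0.809 of TPM, and Prkab1-202 and Prkab1-201 270 codons each, with 56.2% ± 2.50 and 25.7% ± 3.89. Pdpk1-202 (559 codons) held 52.9% ± 7.28 and Pdpk1-201 (532 codons) 34.7% ± 6.47. Sesn3-201 (414 codons) held 38.3% ± 4.34 of TPM and Sesn3-204 (492 codons) 28.6% ± 5.32, but Sesn3-204 held 72.9% of expected counts. At the other end of the coding share, Rraga, Sesn2, Sesn1, Prkaa1 and Eif4ebp2 were almost wholly coding.

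**Figure D4:**
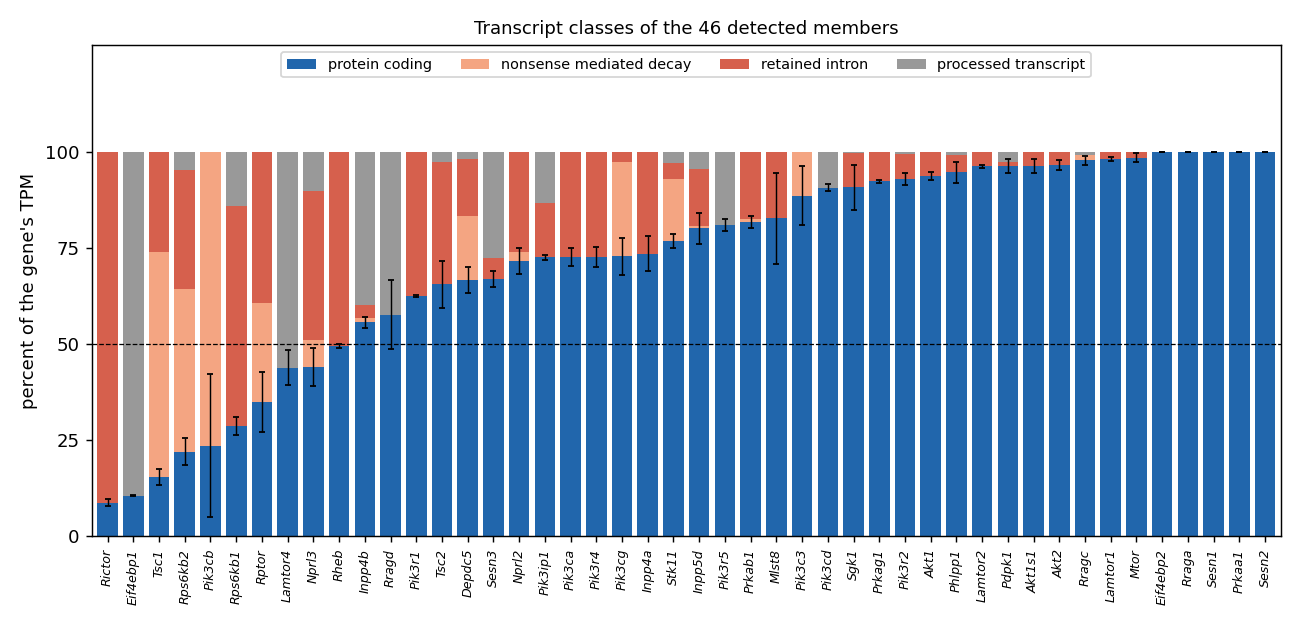
Percent of each detected member's TPM in protein-coding, nonsense-mediated decay, retained-intron and processed transcripts, ordered by the coding share, with error bars of 1 SD over 3 libraries on the coding share. The 10 members at the left lie under the dashed line at 50%.

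Of 20 pairs of paralogs or partners, 19 had a ratio in every library, and 16 exceeded the spread, meaning 3 ratios of 1 sign and a mean beyond 2 SD. With 3 libraries, flipping signs allows no exact p below 0.25, so none is printed. The pairs within the spread were Pik3c3 and Pik3r4, Rps6kb1 and Rps6kb2, and Nprl3 and Nprl2. Coding transcripts alone turned the order of Eif4ebp1 and Eif4ebp2 and ended the call for Rptor and Rictor and for Sesn3 and Sesn2 (log2 0.80 ± 0.23 over all transcripts and 0.22 ± 0.19 over coding ones), while Pik3c3 over Pik3r4 and Nprl2 over Nprl3 became called.

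**Figure D5:**
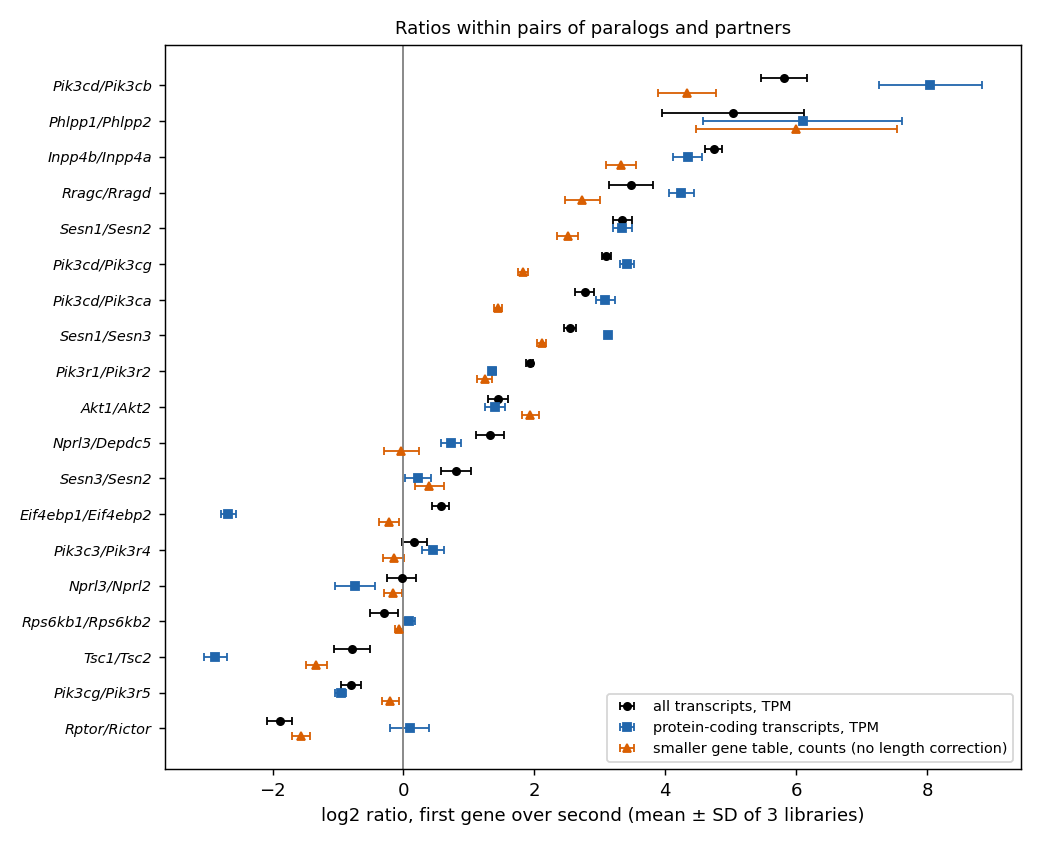
Log2 ratio of the first gene to the second for 19 pairs, as mean ± SD of 3 libraries, by gene TPM, by TPM of protein-coding transcripts, and by counts of the smaller gene table without length correction. Most points keep to 1 side of 0, while Eif4ebp1 over Eif4ebp2 stands at 0.57 by gene TPM and at -2.68 by coding transcripts.

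The libraries agreed closely in level. The relative SD of a detected member was 6.62% at the median, and library 1 was highest for 20 members, library 2 for 15 and library 3 for 11. Library 1 also stood highest over all detected protein-coding genes. There the median log2 ratio of library 1 to the mean was 0.0245, against 0.0355 for the detected members. How many of all genes were highest in each library was not counted. A chi-square test of equal shares of counts, adjusted by Benjamini-Hochberg, called 36 of 47 tested members, against 65.8% of all 15945 tested genes, so the count is read against that background. After scaling by a common overdispersion of 8.61, the sole member called was Pik3cd (adjusted p = 0.00843), among 295 of all tested genes (1.85%). The call does not make Pik3cd the most variable member, since this test calls small differences more readily at high counts. In TPM, which the test did not use, Pik3cd had a relative SD of 6.26%, below the median of the detected members, and Mlst8 29.3%. In counts, the spread beyond sampling noise was 6.77% for Pik3cd and 15.7% for Mlst8, which was called only before the scaling. Pik3cd, with 17771, 16138 and 19069 expected counts, was highest relative to depth in library 1 and lowest in library 2.

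Among the 50 further genes of the pathways, 9 reached 50 TPM and 7 were under 1 TPM. The high ones not yet named were Inpp5k, a lipid phosphatase gene, at 110 ± 7.23 TPM and Pik3c2a, a class II PI3K gene, at 50.1 ± 3.40 TPM. The low ones not yet named were Pik3c2g at 0.020 TPM and Fnip2 at 0.570 ± 0.236 TPM.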

How the data were processed

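Polyadenylated RNA of 1 biosample was measured in 3 technical libraries, and p-values therefore measure only technical spread. The authors deposited expected counts, TPM and FPKM per gene and transcript on mm10 with GENCODE M21, per the file headers and sample notes, and a smaller table of whole-number counts per gene with GENCODE M4. The sources used here do not give the aligner, the quantifier or whether counting used strand. Expected counts split shared reads and 32 of the 48 members had whole values (within 0.005). They were rounded for the chi-square test, which used genes with a summed count of at least 30. The test was tried on simulated counts without overdispersion, which cannot show how it behaves in these overdispersed libraries. Rows that match no annotated gene held 0.125%, 0.182% and 0.155% of counts and stayed out of tests. The deposited effective length, with the 3-count floor, gave each library's limit for a count of 0. Intervals and floors cover counting error only, since reads carry no molecular identifiers. TPM of coding transcripts was summed from the transcript table. Named were all 48 members and further pathway genes of at least 50 TPM or under 1 TPM. Some, but not all, further genes that partner a member were named too. So were some transcripts above 20% of a member's TPM, with smaller ones where a result needed them, chosen after their values were seen. Members and lists were chosen with earlier results of these data known. Tools were Python 3.11.15, pandas 2.3.3, scipy 1.17.1, statsmodels 0.14.6, R 4.3.3, edgeR 4.0.16 and DESeq2 1.42.0, the last 2 for size factors only. Alternatives covered detection, scaling, filters, transcripts, table and libraries. The result of 1 further pathway gene is not reported here.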

Additional observations from a re-analysis of the deposited data

How the results depend on the processing

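The number of members detected stayed between 45 and 47 of 48 under every detection rule tried and at 46 without each library. The median of the members' TPM, 35.0, became 21.9 as FPKM, 40.8 when rescaled to protein-coding genes that are not mitochondrial, 21.6 over protein-coding transcripts and 35.9 over detected members only, and ranged from 35.1 to 35.3 without 1 library. Members called as varying between libraries numbered 36, where 65.8% of all genes were called. They numbered 1 with the overdispersion divided out (1.85% of all genes), 18 in the smaller gene table (33.4%), and 23 to 27 without 1 library (41.1% to 48.6%), the lowest without library 2. Pairs beyond the spread numbered 16, and 12 to 18 under the alternatives. Of the 14 pairs without exon overlap with a gene of at least 1 TPM on average, 13 were called, a setting chosen after seeing the data. Members led by a protein-coding transcript numbered 38, and 38 to 40 otherwise, with no share over all detected genes computed. Over 133 alternative values of single pairs, 116 kept their direction and call. The log2 ratio of Eif4ebp1 to Eif4ebp2 changed sign to -1.27 without length correction, -2.68 over coding transcripts and -0.22 in the smaller table. Pik3c3 to Pik3r4 changed sign to -0.15 without length correction and in the smaller table, Rptor to Rictor to 0.093 and Rps6kb1 to Rps6kb2 to 0.092 over coding transcripts, Nprl3 to Depdc5 to -0.035 in the smaller table, and Nprl3 to Nprl2 ranged from -0.093 to 0.10 without 1 library, the positive value without library 3. The cause of these changes was not tested, beyond the transcripts that the coding sum leaves out. The smaller table and the counts are not corrected for length. No paired analysis was possible because there was 1 group. Genes under 1 TPM were too low for a ratio to be read closely.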
